A study of Mus musculus with 6 samples.

Results

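The keratin family was taken from the deposited gene table as every symbol made of Krt and a number, with keratin-associated proteins left out, which gave 55 of 24532 genes. Of these, 28 were type I and 27 were type II keratins. RNA had been sequenced in bulk from kidneys and ureters of mice at postnatal day (PN) 1, with 2 libraries of Ahnak knockout (KO) kidney, 2 of wild-type (WT) kidney and 1 of ureter for each genotype. The KO mice carry a disruption of exon 5 of Ahnak, and the WT mice carry the intact gene. Per the methods, RNA came from 2 to 4 organs of a kind, and how many went into each library is not given there. The titles of both ureter samples call them a kidney, while their tissue labels call them a ureter.

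Keratins are the intermediate filament proteins of epithelial cells. A filament is built from a type I (acidic) and a type II (basic) keratin, so the members are expressed in matched combinations that differ between epithelia. Krt8 and Krt18 form the filaments of simple epithelia such as the collecting duct, Krt7 and Krt19 join them in ducts and in the urothelium, Krt20 is typical of the superficial urothelial cells, and Krt5 with Krt14 is typical of basal cells. Hair, inner root sheath and nail keratins belong to the skin appendages. The members were therefore described as simple (5 genes), stratified (19 genes), hair and nail (26 genes) and other keratins (5 genes).

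The libraries held 36410246 to 66095616 estimated counts, and 3 counts, taken as the limit of detection, stood for 0.0421 to 0.101 CPM (counts scaled to library size). Such limits cover counting error alone. The tissue labels were read against marker genes. All 12 urothelium markers were higher in the ureter libraries in the test described below, where 21.4% of all genes tested were higher. Their summed level was 88.1 to 95.4 CPM in kidney and 9056 and 8418 CPM in the Ahnak KO and WT ureter. All 10 nephron tubule and podocyte markers were lower in ureter, where 23.7% of all genes tested were lower. Of these, Slc34a1, Slc12a1 and Umod, which mark kidney tubules, were listed at 0 in both ureter libraries. Ahnak itself (gene number 66395) had 139 and 130.4 CPM in kidneys of KO mice, 183 and 189 CPM in those of WT mice, and 635 and 727 CPM in the Ahnak KO and WT ureter. Its kidney difference between genotypes did not pass (log2 fold change -0.47, adjusted p = 0.9999 with edgeR). In FPKM, a level per length, the ureter order of Ahnak was the opposite (45.5 in Ahnak KO and 40.6 in WT), so the ureter libraries are named by their labels throughout. Ahnak KO kidney replicate 1 stood apart from the other kidney libraries. It alone held Xist (2916 CPM against 0.354 to 0.394 CPM) and no counts on 4 Y chromosome genes, which had 8415 to 18055 counts in the other 5 libraries. This is the pattern of female RNA in that replicate and of male RNA in the others. Sex was thus not balanced between the kidney genotypes, and its part in their comparison was not tested. The same replicate listed 7755 genes at 0 against 6415 to 6706, and it had 20 keratins above 0 against 24 to 28. In the library labelled Ahnak KO ureter the ribosomal transcript Rn45s took 8.06% of the counts, against 0.496% to 0.632% in the other 5 libraries.

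A large part of the family had no counts in this table. No count was listed in any library for 22 of the 55 keratins, which were 5 stratified keratins (Krt2, Krt16, Krt24, Krt76 and Krt77) and 17 of the 26 hair and nail keratins. Krt85 (7 counts at most) and Krt31 (2 counts at most) stayed under 10 counts, and 31 keratins had at least 10 counts in a library. All 5 simple keratins and all 5 other keratins were among those 31, with 14 stratified and 7 hair and nail keratins. The counts are estimates, so an entry of 0 is what the table lists and does not show that a gene had no reads.

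In kidney, 4 simple keratins made up 92.8% to 94.6% of the keratin transcripts. In TPM, the share of transcripts corrected for gene length, on which genes can be compared with each other, Krt18 had 238 and 254 with Ahnak KO, against 235 and 215 with WT. Its partner Krt8 had 208 and 254 TPM in Ahnak KO and 232 and 211 TPM in WT kidneys. These ranges overlap, and the ratio of Krt18 to Krt8 lay between 0.999 and 1.14 in the 4 kidney libraries. Krt7 came next with 143, 169.7, 169 and 149 TPM in the same order of libraries, and its range lay below those of Krt8 and Krt18. Krt19 had 63.8, 71.7, 68.9 and 59.9 TPM, below Krt7 in every kidney library. Krt23, a type I keratin outside the simple group, followed with 22.3 and 24.9 TPM in Ahnak KO and 34.3 and 27.3 TPM in WT kidneys. No other keratin exceeded 5.39 TPM in a kidney library. Next were Krt10 (5.06 ± 0.319 TPM), a suprabasal keratin of the epidermis, and Krt14, Krt15 and Krt20 with means of 2.30 ± 1.28, 2.25 ± 0.816 and 2.15 ± 0.706 TPM (SD, n = 4), which did not differ beyond their spread.

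**Figure D1:**
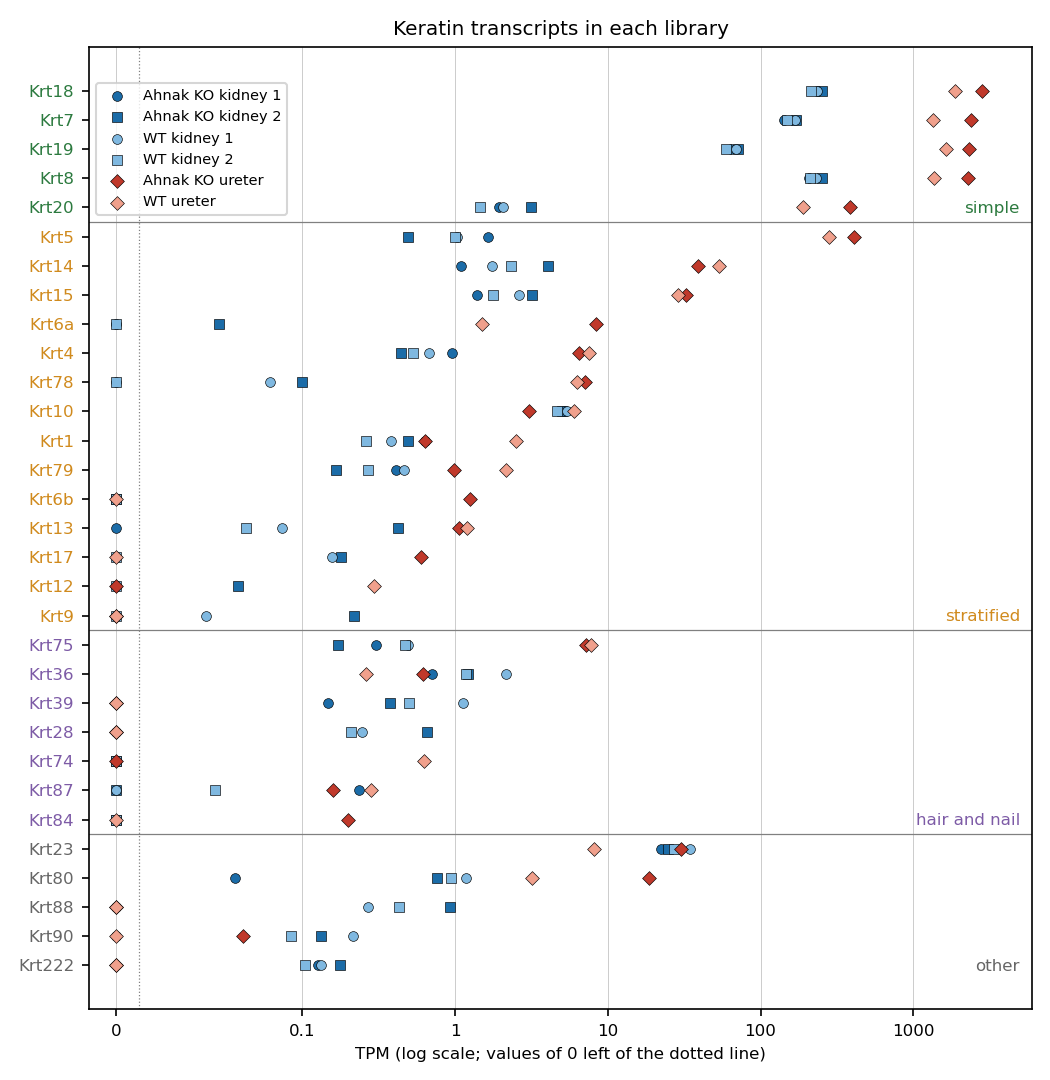
Level of each keratin with at least 10 counts in a library, in TPM on a log axis, with 1 symbol for each library and values of 0 set left of the dotted line, by group of keratins. Krt18, Krt7, Krt19 and Krt8 lay at or above 1353 TPM in both ureter libraries and between 59.9 and 254 TPM in the kidney libraries, while most hair and nail keratins lay near or at 0 in every library.

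The ureter held about 12 times as much keratin transcript. Summed over the family, keratins came to 689 and 797 TPM in Ahnak KO kidneys, 759 and 678 TPM in WT kidneys, 10772 TPM in the Ahnak KO ureter library and 6831 TPM in the WT one. The mean of the ureter libraries was 12.0 times the kidney mean (731 ± 56.9 TPM, SD, n = 4). As a share of all transcripts, keratins took 0.0734% ± 0.0057 (SD, n = 4) in kidney and 1.08% and 0.686% in the Ahnak KO and WT ureter. In bulk RNA, fewer cells of a type and less RNA per cell cannot be told apart, and this holds for every keratin difference given here.

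As a group, the simple keratins kept a like share of the keratin transcripts, while single members differed. Simple keratins made up 93.1% to 94.9% of keratin TPM in kidney and 94.7% and 93.98% in the Ahnak KO and WT ureter. Within them, Krt8 made up 30.1% to 31.9% of keratin TPM in kidney and 21.4% and 20.2% in ureter, and Krt19 made up 8.83% to 9.25% in kidney and 21.4% and 23.8% in ureter. Stratified keratins took 1.60% to 1.87% in kidney and 4.74% and 5.72% in ureter, and Krt5 alone made up 3.803% and 4.12% of the ureter total, against 0.0619% to 0.237% of the kidney total. Krt20 took 3.58% and 2.798% there, against 0.214% to 0.392% in kidney. Krt23 made up 3.13% to 4.51% in kidney and 0.278% and 0.119% in ureter. The share of hair and nail keratins was at or below 0.530% in every library. The kidney and ureter ranges did not overlap for Krt8, Krt19, Krt5, Krt20, Krt23 or the stratified total. These shares are descriptions of 4 and 2 libraries and were not tested.

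**Figure D2:**
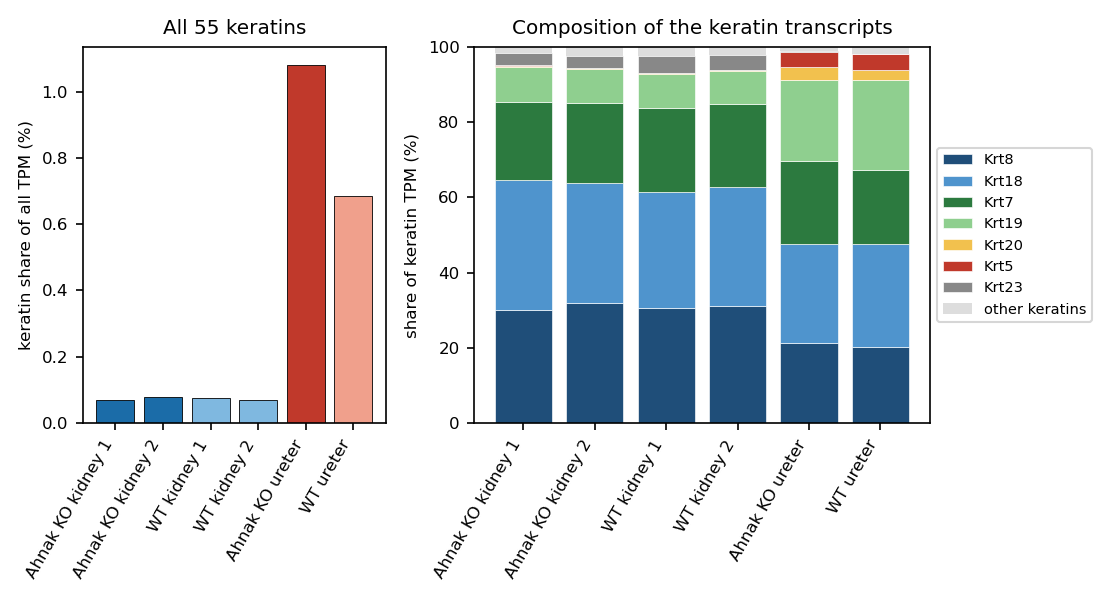
Left, share of all TPM taken by the 55 keratins in each library (%), from 0.0681% in a kidney to 1.08% in the library labelled Ahnak KO ureter. Right, share of the keratin TPM (%) taken by 7 named keratins and the rest: Krt8 and Krt18 together make up most of the kidney bars, and Krt19, Krt20 and Krt5 take larger parts of both ureter bars.

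The balance of the filament types also differed. The ratio of type I to type II TPM lay between 0.864 and 0.942 in kidney, and was 1.09 in the Ahnak KO ureter library and 1.25 in the WT one. For the simple keratins alone it was 0.763 to 0.865 in kidney and 1.18 and 1.35 in ureter. The stratified keratins went the other way, from 2.12 to 7.62 in kidney to 0.175 and 0.298 in ureter. Their kidney ratio rests on a sum of 10.8 to 14.9 TPM, against 510 and 391 TPM in ureter. Of that kidney sum, the type I keratin Krt10 held 4.64 to 5.39 TPM. Krt5 and Krt14 form the basal cell filament together, and by TPM Krt5 was 10.6 and 5.24 times as high as Krt14 in the Ahnak KO and WT ureter. In kidney that ratio was 0.121 to 1.48, at levels of at most 4.07 TPM. Krt5 had more transcript than Krt14 and Krt15 combined in the ureter, where their sum was 0.174 and 0.293 of Krt5. None of these ratios was tested.

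Kidney and ureter were then compared gene by gene, with both genotypes fitted together (edgeR's quasi-likelihood test on estimated counts, with a term for genotype; SE is the standard error of a log2 fold change). Of the 55 keratins, 25 passed the filter on low counts and were tested among 16873 genes. At an adjusted p under 0.05, 14 were higher in ureter, where 21.4% of all genes tested were higher, and 2 were lower, where 23.7% of all genes were lower. The remaining 9 did not pass. A keratin with counts in the ureter alone could pass the filter through that tissue, so the share of tested keratins that rose is a description. The median log2 fold change of the 25 keratins was 3.64, against -0.076 for all genes tested. It was also 3.64 with the keratins listed at 0 in ureter set to their limit. Scaling by library size alone lowered the median of all genes by 0.29 to -0.36, so that 28.0% rather than 47.4% of all calls were higher in ureter, and the keratin counts of 14 higher and 2 lower were the same numbers. The paper's methods state 2 biological replicates, while 1 ureter library per genotype was at hand. Since the labels do not say that libraries came from separate animals, these p-values measure the spread between libraries. In each genotype a kidney and a ureter column carry the same number in their names, which the labels do not explain, and the test treats them as separate.

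All 5 simple keratins rose in ureter. Krt20 rose most among them, from 1.95, 3.13, 2.06 and 1.45 TPM in the kidney libraries (Ahnak KO replicates 1 and 2, then WT replicates 1 and 2) to 385 and 191 TPM in the Ahnak KO and WT ureter. Its log2 fold change was 7.39 (SE 0.272, adjusted p = 1.40e-05). Krt19 reached 2306 and 1628 TPM, with a log2 fold change of 5.27 (SE 0.165, adjusted p = 8.40e-06). Krt7 reached 2386 and 1353 TPM, a log2 fold change of 3.92 (SE 0.229, adjusted p = 6.28e-05). Krt18 reached 2827 and 1871 TPM and Krt8 2301 and 1377 TPM, and these partners had the smallest rises of the group. Their log2 fold changes were 3.68 (SE 0.151, adjusted p = 1.88e-05) for Krt18 and 3.38 (SE 0.200, adjusted p = 6.51e-05) for Krt8. For all 5 genes every ureter value lay above every kidney value, and the share of all genes with such a separation was not counted.

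Of 10 stratified keratins tested, 7 rose, and they included the basal cell keratins. Krt5 had 1.63, 0.494, 1.02 and 1.0 TPM in the kidney libraries and 409.7 and 281 TPM in the Ahnak KO and WT ureter. Its log2 fold change was 8.75 (SE 0.415, adjusted p = 3.03e-05). Its partner Krt14 had 1.10, 4.07, 1.73 and 2.31 TPM in kidney and 38.8 and 53.7 TPM in ureter, a log2 fold change of 4.69 (SE 0.479, adjusted p = 0.000552). Krt15, another basal keratin, had 1.40, 3.20, 2.61 and 1.78 TPM in kidney and 32.4 and 28.6 TPM in ureter, a log2 fold change of 4.13 (SE 0.346, adjusted p = 0.000237). The differences between these rises were not tested. In each of these genes the groups did not overlap, a pattern that was not counted over all genes. Among the kidney libraries, Ahnak KO replicate 2 had the highest Krt14, Krt15 and Krt20 and the lowest Krt5.

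The other stratified keratins that rose were far lower in level. Krt6a, a keratin of stressed and wounded epithelium, had 0, 2, 0 and 0 counts in the kidney libraries and 369 and 100 counts in the Ahnak KO and WT ureter. Scaled to depth, the 469 ureter counts against 2 kidney counts are a ratio of 728, with a 95% exact counting interval of 200.3 to 6026 (adjusted p = 0.000185 in edgeR). Krt6b, its near copy, was listed at 0 in every kidney library and had 55 and 0 counts in the Ahnak KO and WT ureter, which makes it at least 56.9-fold higher over the ureter libraries together, although it was too low to be tested. Reads shared by Krt6a and Krt6b, or by Krt14, Krt16 and Krt17, could have been split or moved between these genes, and Krt16 was listed at 0 throughout. Krt78 had 0, 10, 7 and 0 counts in kidney and 471 and 632 in ureter, a log2 fold change of 7.67 (SE 0.905, adjusted p = 0.000984). Krt4, which is typical of moist stratified epithelia, had 0.949, 0.445, 0.672 and 0.529 TPM in kidney and 6.45 and 7.49 TPM in ureter (log2 fold change 3.80, SE 0.361, adjusted p = 0.000411).

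Krt79, found in the hair canal, had 24, 10, 32 and 16 counts in kidney and 40 and 135 in ureter, a log2 fold change of 2.57 (SE 0.624, adjusted p = 0.0170). It passed in 12 of 17 other settings, and did not without WT kidney replicate 2 (adjusted p = 0.062), without the Ahnak KO ureter (0.05), without the WT ureter (0.137), with the Ahnak KO libraries alone (0.188) or with a block by the numbers in the column names (0.0952). Krt13, the usual partner of Krt4, had 0, 20, 4 and 2 counts in kidney and 34 and 54 in ureter and did not pass (log2 fold change 3.64, SE 1.37, adjusted p = 0.0718). In 6 of the 16 other settings it did pass. Krt1, a keratin of the upper epidermis, had 44, 35, 31 and 18 counts in kidney and 30 and 181 in ureter (log2 fold change 2.14, adjusted p = 0.0567). Krt1 passed in 5 of 17 other settings, and its log2 fold change was 0.61 without the WT ureter (adjusted p = 0.601) and 3.26 without the Ahnak KO ureter (adjusted p = 0.012). Its partner Krt10 had 5.18, 5.04, 5.39 and 4.64 TPM in kidney and 3.05 and 5.97 TPM in ureter. Krt10 had a log2 fold change of 0.16 (SE 0.279, adjusted p = 0.658) and its groups overlap.

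Outside these groups, Krt75 and Krt80 rose and Krt39 and Krt222 fell. Krt75, a keratin of the companion layer of hair follicles, had 28, 16, 54 and 44 counts in kidney and 456 and 754 in ureter (log2 fold change 4.85, SE 0.354, adjusted p = 0.000135). Krt80, a type II keratin seen in many epithelia, had 0.0361, 0.755, 1.19 and 0.943 TPM in kidney and 18.7 and 3.17 TPM in ureter. Its log2 fold change was 4.31 (SE 1.23, adjusted p = 0.0295), and it no longer passed without Ahnak KO kidney replicate 2, WT kidney replicate 2 or the Ahnak KO ureter, where its adjusted p was at most 0.288. Ahnak KO kidney replicate 1 was the lowest library for Krt80 by far, with 2 counts against 39 to 70 in the other kidneys.

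Both falls were of keratins that were low in kidney. Krt39 had 6, 16, 54 and 21 counts in the kidney libraries and was listed at 0 in both ureter libraries. It was at least 10.4-fold lower over the ureter libraries together (3 counts over the group as the limit), and its adjusted p was 0.0292. Krt222 had 10, 14, 12 and 8 counts in kidney and 0 in ureter, at least 4.73-fold lower, with an adjusted p of 0.0472. Krt222 passed in 4 of the 14 other settings that tested it, and in none of the 4 that left out a library, where its adjusted p was 0.0583 to 0.138. Krt39 passed in 9 of 16. With 1 library left out, the keratins lower in ureter were none without WT kidney replicate 1, WT kidney replicate 2 or the WT ureter. They were Krt39 without Ahnak KO kidney replicate 2, Krt23 without the Ahnak KO ureter, and Krt39, Krt28 and Krt88 without Ahnak KO kidney replicate 1. Krt28 (0, 29, 12 and 9 counts) and Krt88 (0, 25, 8 and 11 counts) were also listed at 0 in both ureter libraries, at least 5.37-fold and 4.73-fold lower, and did not pass, with adjusted p-values of 0.151 and 0.158.

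Krt23, Krt36, Krt87 and Krt90 did not pass either. Krt23 was the keratin next to the 4 abundant simple keratins in kidney. Its log2 fold change was -0.23 (SE 0.534, adjusted p = 0.753), and the Ahnak KO ureter, with 29.9 TPM, lay within the range of the kidneys while the WT ureter, with 8.13 TPM, lay below all 4. Without the WT ureter its log2 fold change was 0.80 with an adjusted p of 0.0334. Without the Ahnak KO ureter it was -1.61 with an adjusted p of 0.0059. Krt36, a keratin of nail and tongue, had 34, 58, 120 and 56 counts in kidney and 20 and 13 in ureter (log2 fold change -1.15, adjusted p = 0.291). Krt87 had 13, 0, 0 and 2 counts in kidney and 6 and 16 in ureter, and Krt90 had 0, 10, 18 and 7 counts in kidney and 3 and 0 in ureter, with adjusted p-values of 0.283 and 0.587.

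A further 5 keratins had at least 10 counts in a library beside Krt6b and were too low to be tested. Krt74 (30 counts, WT ureter) and Krt84 (10 counts, Ahnak KO ureter) were each found in 1 ureter library and in no kidney. Krt12 had 3 counts in Ahnak KO kidney replicate 2 and 17 in the WT ureter, a ratio of ureter to kidney of 17.6 (95% exact counting interval 5.09 to 93.7). Krt17 had 8 and 8 counts in Ahnak KO kidney replicate 2 and WT kidney replicate 1 and 18 in the Ahnak KO ureter. Krt9 had 17 and 3 counts in the same kidneys and was listed at 0 in both ureter libraries. Mouse Krt74 is annotated as a transcribed pseudogene in RefSeq.

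**Figure D3:**
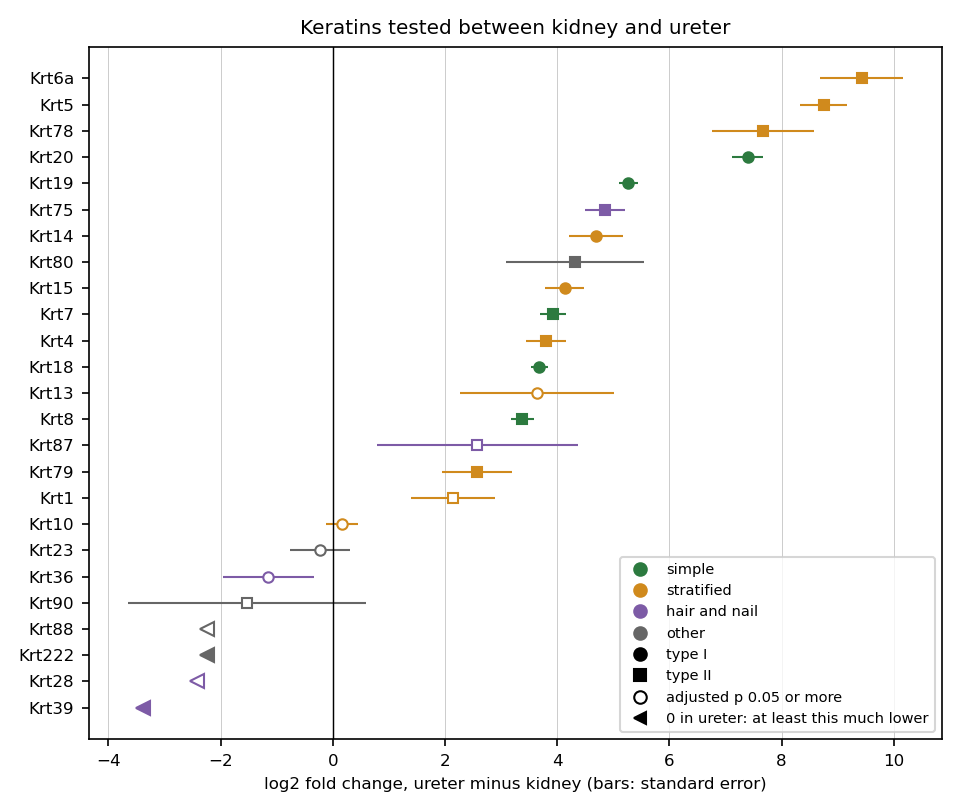
Log2 fold change of the 25 tested keratins, ureter minus kidney, with the SE from edgeR, by group (colour) and type (shape), open where the adjusted p was 0.05 or more. Triangles mark keratins listed at 0 in both ureter libraries, drawn at their limit. The 5 simple keratins lie between 3.38 and 7.39, Krt6a and Krt5 lie farthest right, and Krt39 and Krt222 are the filled points on the left.

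Genes that anchor keratin filaments were also mostly higher in ureter. Desmosomes and hemidesmosomes tie keratins to the cell border and to the basement membrane, and of 19 tested genes of this list 15 were higher in ureter and 0 were lower. Over all genes tested 21.4% were higher and 23.7% were lower, which is the background for this list and for those that follow. Their median log2 fold change was 2.78. Among the most abundant members, the plakin Plec (90.5 to 124 CPM in kidney, 586 and 285 CPM in the Ahnak KO and WT ureter) had a log2 fold change of 1.93 (adjusted p = 0.00106) and plakoglobin, Jup, had 1.73 (adjusted p = 0.000241). Dst rose by 0.37 (adjusted p = 0.0198). Itga6, the integrin partner of Itgb4, did not pass (158 to 217 CPM in kidney, 248 and 189.5 CPM in ureter, adjusted p = 0.295). Other cytoplasmic intermediate filament genes had 5 members higher and 1 lower of 12 tested, with a median of 1.96. Vim of mesenchymal cells rose by 1.58 (adjusted p = 6.87e-05), Des of muscle by 2.35 (adjusted p = 5.33e-05) and Synm by 2.39 (adjusted p = 0.000685), while Nes had a log2 fold change of -1.44 (adjusted p = 0.000311).

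The cornified envelope list, which together with the keratin-associated proteins served as markers of epidermis and hair, was split. Of its 21 genes in the table, 10 were listed at 0 in every library, among them Flg2, Hrnr, Dsc1 and Dsg1a, while 5 of 9 tested were higher in ureter. Sprr1a, a small proline-rich envelope precursor, had 16.1 to 28.4 CPM in kidney and 3014 and 1823 CPM in the Ahnak KO and WT ureter (log2 fold change 6.75, adjusted p = 5.49e-06). Ivl, or involucrin, had 0.198 to 2.003 CPM in kidney and 491 and 140.2 CPM in ureter (log2 fold change 8.08, adjusted p = 0.000388). Dmkn rose by 6.29 (adjusted p = 4.73e-05), and Sbsn did not pass (adjusted p = 0.0928). Of 54 keratin-associated protein genes, 48 were listed at 0 in every library and the whole list summed to at most 0.336 CPM. Summed cornified envelope levels lay between 31.15 and 44.8 CPM in kidney and at 3561 and 1997 CPM in ureter.

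Markers of other cell types also differed between the tissues. Of the pan-epithelial markers, 8 of 10 were higher in ureter (summed 711.5 to 770.4 CPM in kidney, 2740 and 2156 CPM in the Ahnak KO and WT ureter), and Epcam, present in most epithelial cells, was not (adjusted p = 0.123). Of the collecting duct and ureteric epithelium markers, 9 of 12 were lower and 2 were higher in ureter, with Aqp2 and Calb1 at 0 in both ureter libraries and Aqp3 and Wnt7b higher. All 8 smooth muscle markers were higher (summed 588 to 690 CPM in kidney, 7039 and 7761 CPM in ureter). Of 5 mesothelium markers, 2 were higher and 2 were lower, and the list summed to 231 to 271 CPM in kidney and 347 and 316 CPM in ureter. Most of the ureter sum was Upk3b (317 and 288 CPM), which is also on the urothelium list. Most of the kidney sum was Wt1 (201 to 233 CPM), which the paper uses as a podocyte marker. The sums therefore do not measure mesothelium alone. The part of these shifts in cell makeup in the keratin differences was not tested.

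The genes lie in 2 clusters. Gene numbers of 54 keratins matched RefSeq on GRCm38.p6, the build that the table's name gives as mm10, and Krt85 did not. The type I cluster holds 27 keratins at chr11:99232761-100269951, and the other holds 26 type II keratins and the type I keratin Krt18 at chr15:101348315-102032026. In both clusters abundant genes lie beside genes listed at 0 in ureter or in every library. On chromosome 11, Krt19 (mean of 66.1 TPM in kidney and 1967 TPM in ureter) lies next to Krt15 and to Krt9, which was listed at 0 in ureter. Krt20, which rose in ureter, and Krt23, which did not pass the test, are also adjacent. On chromosome 15, Krt8 and Krt18 are neighbours at the end of the cluster and 23874 bases apart, and Krt7 lies near the opposite end, beside Krt80. Krt5 lies between Krt6a and Krt71, which was listed at 0 in every library.

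**Figure D4:**
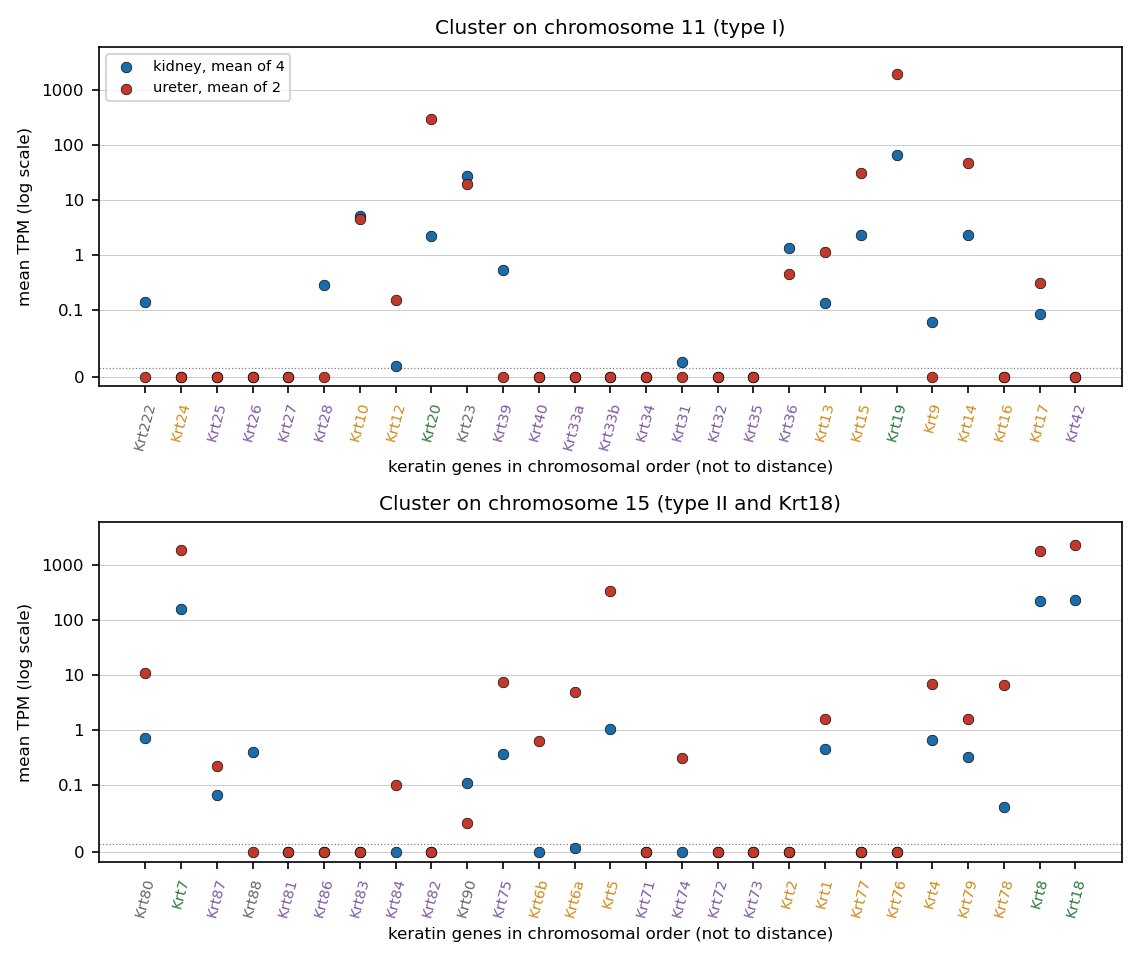
Mean TPM (log axis, values of 0 below the dotted line) of each keratin in kidney (4 libraries) and ureter (2 libraries), with genes in chromosomal order and label colours for simple (green), stratified (orange), hair and nail (purple) and other (grey) keratins. Ureter points stand above kidney points for Krt20, Krt15, Krt19 and Krt14 on chromosome 11 and for Krt7, Krt5, Krt8 and Krt18 on chromosome 15, while runs of hair and nail keratins lie at 0.

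Promoters of 5 keratins that were higher in ureter are shown. Krt19, which took 21.4% and 23.8% of the keratin TPM in the Ahnak KO and WT ureter, is not among them. RefSeq windows from 250 bases before to 50 bases after a start were at hand for 36 keratins (37 windows), 9 of them windows of keratins that were higher in ureter. The last 150 bases of 5 windows follow, 5′ to 3′ on the gene's strand in GRCm38.p6, with any TATAAA or ATAAAA in capitals. These stretches hold 100 bases before the start.
Krt5, chr15:101712856-101713005, minus strand: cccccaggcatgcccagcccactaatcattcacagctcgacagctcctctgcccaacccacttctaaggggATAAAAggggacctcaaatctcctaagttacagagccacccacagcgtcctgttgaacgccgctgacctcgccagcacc
Krt20, chr11:99438104-99438253, minus strand: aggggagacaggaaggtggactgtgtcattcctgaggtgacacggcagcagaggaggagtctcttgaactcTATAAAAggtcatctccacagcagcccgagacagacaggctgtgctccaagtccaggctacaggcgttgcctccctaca
Krt7, chr15:101412303-101412452, plus strand: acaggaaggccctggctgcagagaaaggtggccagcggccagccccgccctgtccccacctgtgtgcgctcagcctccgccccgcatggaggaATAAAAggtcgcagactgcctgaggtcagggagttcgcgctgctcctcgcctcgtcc
Krt8, chr15:102004293-102004442, minus strand: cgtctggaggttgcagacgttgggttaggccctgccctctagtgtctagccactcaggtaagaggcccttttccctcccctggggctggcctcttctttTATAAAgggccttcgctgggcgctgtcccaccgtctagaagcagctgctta
Krt18, chr15:102028116-102028265, plus strand: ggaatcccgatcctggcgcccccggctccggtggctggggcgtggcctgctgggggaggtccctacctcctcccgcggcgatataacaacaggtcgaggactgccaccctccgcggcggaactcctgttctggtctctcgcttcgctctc
In Krt5 an ATAAAA begins 29 bases before the annotated start, and in Krt20 it begins 28 bases before it, as part of TATAAAA. In Krt7 it begins 7 bases before the start. Krt8 holds TATAAA at its start instead, and Krt18 holds neither sequence in this stretch. Outside the printed set, ATAAAA begins 29 bases before the start in Krt78, which was higher in ureter. It begins 31 bases before the start in Krt23, which did not pass between the tissues.

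Over whole windows, TATAAA on the gene's strand was found in 17 of 37 keratin windows (45.9%) and in 8.32% of all 32851 windows of the table. ATAAAA, searched after these sequences were seen and overlapping TATAAA wherever that is followed by an A, was found in 45.9% of keratin windows and 11.1% of all windows. Among the 9 windows of keratins higher in ureter, TATAAA was found in 2 (Krt20 and Krt8) and ATAAAA in 6 (Krt5, Krt7, Krt20, Krt75, Krt78 and Krt79). Core letters of other factors were searched on both strands. TGANTCA, the letters of AP-1 sites, was in 5.41% of keratin windows and 7.81% of all windows, GCCNNNGGC, of AP-2 sites, in 18.9% and 16.6%, AACNNGTT, of grainyhead-like sites, in 1 of 37 keratin windows and 4.20% of all, and AGATAA, of GATA sites and overlapping ATAAAA where the letters AA follow, in 27.0% and 11.2%. A match is a run of letters and no evidence of binding, and no enrichment was tested.

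Ahnak KO and WT ureter were compared by the ratio of 1 library to 1, which leaves the spread between samples unknown, and no test was made. Values were set side by side as log2(CPM + 0.5), where the higher library held 10 counts or more. Of 25 such keratins, 7 were over 2-fold up in the library labelled Ahnak KO, where 4.50% of 16117 genes compared were, and 2 were over 2-fold lower, where 5.75% of all genes were. A gene listed at 0 in 1 library could enter through the other, as Krt6b and Krt17 did among the 7 and Krt74 among the 2. These counts are thus a description. The other 16 lay within 2-fold on this scale. They include Krt12 and Krt84, each listed at 0 in 1 library, which the added 0.5 CPM draws closer. At their limits these were at least 3.27-fold lower (Krt12) and at least 5.77-fold higher (Krt84) in the library labelled Ahnak KO. Counting every difference, 17 keratins were above 0 and 8 below, and the median of their log2 ratios was 0.59 against -0.016 over the whole table. With keratins listed at 0 in a library set to their limit, the median was also 0.59. Scaling by library size alone moved the median of all genes to -0.20, and gave 5 keratins over 2-fold higher in place of 7. As for other lists, the 12 urothelium markers had a median log2 ratio of 0.13, the pan-epithelial markers 0.12 and the smooth muscle markers -0.18 in the same libraries. The 8 collecting duct markers compared had a median of -0.28. The 5 mesothelium markers had a median of 1.04, with 3 over 2-fold higher and 0 over 2-fold lower. Of these, Wt1 had 1.13 and Gpm6a 1.04, Lrrn4 had 52 counts against 0, Upk3b, also on the urothelium list, had 0.14 and Msln -0.60. Mesothelium also expresses simple keratins, and the part of these markers' cells in the keratin ratios was not tested.

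The 5 simple keratins all had the higher value in the Ahnak KO ureter library. Krt20 had 490.4 CPM against 213 CPM in WT, a log2 ratio of 1.20 (95% exact counting interval of the fold 2.25 to 2.36). Krt7 had 2474 and 1229 CPM, a log2 ratio of 1.01 (2.02-fold, counting interval 1.99 to 2.04), which lay at the 2-fold line, and 0.81 with library size alone or 0.80 with FPKM. Krt8 had 2715 and 1423 CPM (log2 ratio 0.93), Krt18 2587 and 1500.2 CPM (0.79) and Krt19 2081 and 1286 CPM (0.70). Their median was 0.93. The counting intervals leave out the variation between mice and preparations, which these 2 libraries do not show.

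The stratified keratins did not share this direction. Of 13 compared, 7 were higher and 6 were lower, with a median log2 ratio of 0.08. Krt5 had 587 and 353 CPM in the Ahnak KO and WT ureter (log2 ratio 0.73), while its partner Krt14 had 41.9 and 50.4 CPM (log2 ratio -0.26). Krt15 had 36.4 and 28.2 CPM (0.36). Krt6a had 369 and 100 counts (log2 ratio 2.37, 5.11 to 8.06-fold by counting error), Krt6b 55 and 0 counts (at least 31.8-fold higher) and Krt17 18 and 0 counts (at least 10.4-fold higher). In the opposite direction, Krt1 had 30 and 181 counts, a log2 ratio of -1.37. Krt10 (-0.69), Krt79 (-0.74) and Krt4 (-0.02) were on the lower side within 2-fold, and Krt12 was listed at 0 against 17 counts in WT, at least 3.27-fold lower. Krt78 and Krt13 had log2 ratios of 0.35 and 0.08, and Krt13 changed sign with library size alone.

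The largest difference of the family with counts in both libraries was that of Krt80. It had 645 counts in the Ahnak KO ureter library and 166 in the WT one, or 21.7 and 3.22 CPM. Its log2 ratio was 2.55 (5.87-fold), and its count ratio had a counting interval of 5.67 to 8.03-fold. Krt23 had 897 and 369 counts, or 30.2 and 7.17 CPM, a log2 ratio of 1.99 (3.73 to 4.77-fold). Among hair and nail keratins, Krt74 was listed at 0 against 30 counts in WT, at least 5.77-fold lower. Krt84 had 10 counts against 0, at least 5.77-fold higher. Krt75 (0.06), Krt36 (0.59) and Krt87 (-0.19) were within 2-fold.

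In summed TPM, keratins in the Ahnak KO ureter library came to 1.58 times those of the WT library, with 1.59 for the simple, 1.31 for the stratified, 0.906 for the hair and nail and 4.31 for the other keratins. Type II keratins were 1.69 times and type I keratins 1.48 times as high. For their anchoring genes the median of the log2 ratios was 0.48, with Plec at 1.04 and Jup at 0.65, and the cornified envelope genes had 0.73, with Ivl at 1.81 and Sprr1a at 0.73. The other intermediate filament genes had a median of 0.36, with Vim at 0.36. The library labelled Ahnak KO had the lower depth, with the WT ureter 1.73 times as deep after scaling, and the higher share of Rn45s. Whether these library differences take part in the keratin ratios was not tested. Leaving Rn45s out and scaling by library size alone gave 6 keratins over 2-fold higher and 2 lower.

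**Figure D5:**
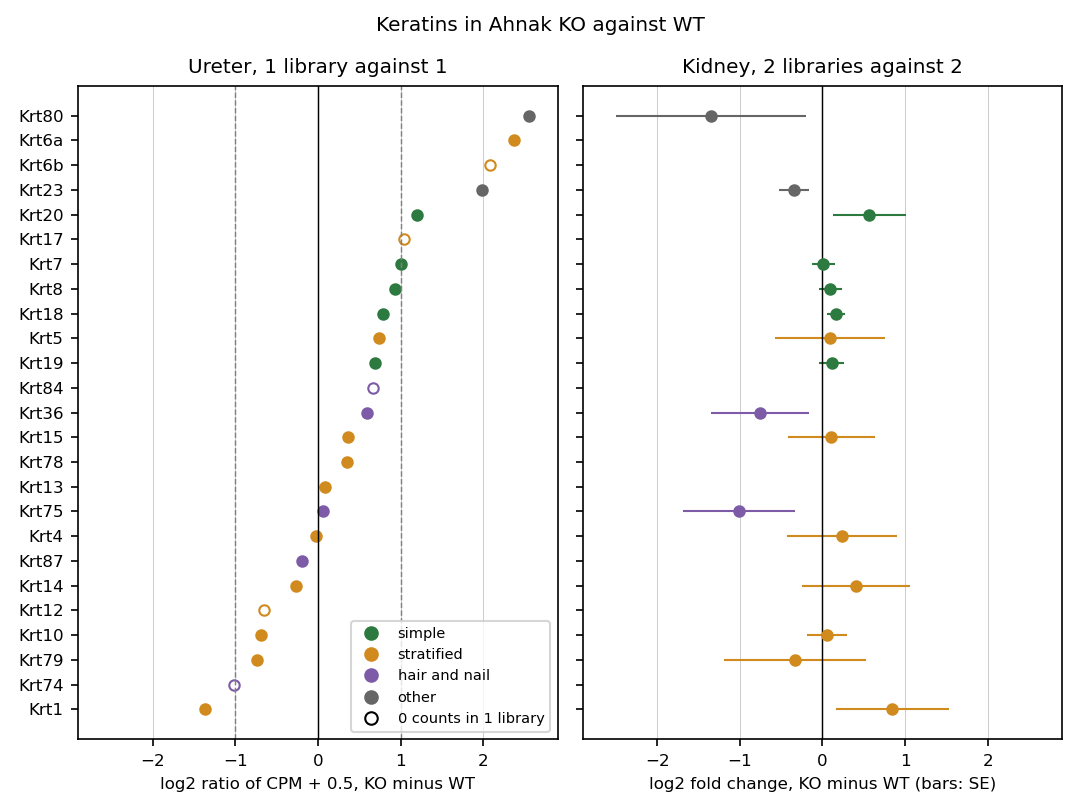
Left, log2 ratio of CPM + 0.5, Ahnak KO minus WT, for 25 keratins in ureter, with dashed lines at 2-fold and open points for keratins listed at 0 in 1 library. Right, log2 fold change and SE from edgeR for the same keratins in kidney where they were tested. Green points (simple keratins) lie between 0.70 and 1.20 in ureter and between 0.01 and 0.57 in kidney.

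In kidney, with 2 libraries of each genotype, no keratin passed the test. Of 21 keratins tested, 0 had an adjusted p under 0.05 with edgeR's quasi-likelihood test and 0 had an unadjusted p under 0.05, and DESeq2 gave 0 and 0. Over all 16481 genes tested, edgeR called 2 (0.0121%) and DESeq2 called 44. With edgeR, 227 genes had an unadjusted p under 0.05. Every keratin had an adjusted p of 0.9999 in edgeR. Among the simple keratins, Krt18 had 155, 172 (Ahnak KO), 152 and 140.0 CPM (WT), a log2 fold change of 0.16 (SE 0.108). Krt8 had a log2 fold change of 0.10 (SE 0.143), Krt19 of 0.11 (SE 0.150), Krt7 of 0.01 (SE 0.140) and Krt20 of 0.57 (SE 0.437). For Krt18 both Ahnak KO values lay above both WT values, and for the other 4 the genotypes overlapped.

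Both Ahnak KO kidneys were above both WT kidneys for 2 of the 21 keratins, Krt1 and Krt18, where 12.8% of all genes tested were. Both were below for 4, Krt23, Krt39, Krt75 and Krt80, where 13.5% of all genes were. Of 16 keratins with values in both tissues, 4 (Krt1, Krt23, Krt75 and Krt80) also had a ureter ratio of the opposite sign, a pattern of 9.89% of 15348 genes. Krt23 had 16.0 and 18.5 CPM in Ahnak KO and 24.5 and 19.5 CPM in WT kidneys (log2 fold change -0.35, SE 0.182). Krt80 had 0.0331 and 0.657 CPM against 0.983 and 0.787 CPM (log2 fold change -1.35, SE 1.15), with Ahnak KO kidney replicate 1 far below the other 3 libraries. Krt39 had 6 and 16 counts against 54 and 21 (log2 fold change -1.57), and Krt75 28 and 16 counts against 54 and 44 (log2 fold change -1.01). The median log2 fold change was 0.10 for the 21 keratins, 0.11 for the simple and for the stratified keratins, and -0.004 for all genes tested.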

How the data were processed

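Bulk RNA-seq of mouse kidney and ureter at PN1 was used as 1 table for all 6 samples. Per the labels' processing notes, reads were handled with FastQC 0.11.7, Trimmomatic 0.38, HISAT2 2.1.0, StringTie 1.3.4b, edgeR and R 3.6.1 on mm10, while the methods name Cutadapt, STAR and Cufflinks on GRCm39. The authors deposited for 24532 genes an estimated count of reads (whole numbers, not normalized), FPKM and TPM, the last 2 normalized by the authors for length and depth. The tests had been planned for read counts and were run on these estimated counts. The counts cannot tell near-identical keratins apart where reads match several genes.

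CPM were computed with TMM factors. Kidney and ureter were compared with edgeR 4.0.16 in R 4.3.3 (filterByExpr by tissue, quasi-likelihood test, terms for genotype and tissue, 3 residual degrees of freedom), and kidney genotypes likewise with 2 residual degrees of freedom, with Benjamini-Hochberg adjustment over all genes tested. Standard errors are the absolute log2 fold change over the square root of F, an approximation. Ureter genotypes were compared by log2(CPM + 0.5) of 1 library each. Exact binomial intervals (95%) for counting error are of the count ratio scaled to depth, without the 0.5 CPM. Alternatives used DESeq2 1.42.0, limma 3.58.1 on log2(FPKM + 1) and log2(FPKM + 0.1), other scalings, filters and pseudocounts, a replicate block and leaving out each library. Scaling without Rn45s, a crossed block and a block by the column names' numbers were added after seeing the data. Scripts were tested on simulated data. The rule named every keratin, with values in each library for those tested and counts for those with at least 10, and up to 4 members of each other list with the highest mean CPM. Flg2, Hrnr, Dsc1, Dsg1a, Umod, Wnt7b, Lrrn4, Xist and Rn45s fall outside the rule and were chosen once their values were known. The members and lists were chosen with earlier results of these data known. The labels tie the kidneys' replicate numbers to no shared animal, litter or day, and deviations of same-numbered libraries correlated at -0.193 over 16481 genes.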

Additional observations from a re-analysis of the deposited data

Results flagged for a closer look

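In 4 keratins both Ahnak KO kidney libraries lay on one side of both WT kidneys while the library labelled Ahnak KO ureter lay on the other side of the WT ureter. These were 4 of 16 keratins with values in both tissues, and 9.89% of 15348 genes had the same pattern. The difference between tissues was not tested. Krt80 had a log2 ratio of 2.55 in ureter and a log2 fold change of -1.35 (standard error 1.15) in kidney. Krt23 had 1.99 in ureter and -0.35 (standard error 0.182) in kidney. Krt75 had 0.065 in ureter, where it changed sign with library size alone, and -1.01 (standard error 0.675) in kidney. Krt1 had -1.37 in ureter and 0.85 (standard error 0.683) in kidney. Each of the 4 had an adjusted p of 0.9999 in kidney with edgeR's quasi-likelihood test, and the ureter values compare 1 library with 1.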

How the results depend on the processing

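Of the 14 keratins higher in ureter, 12 were called in each of the 17 alternatives that gave them a value, and Krt79 and Krt80 were not. The number higher ran from 12 to 18 over the alternatives, and from 12 to 15 with a library left out. The number lower in ureter, 2, became 0 with the Ahnak KO libraries alone, with at least 10 counts in every library (where Krt39 and Krt222 were not tested) and with limma on log2(FPKM + 1). It became 1 with limma on log2(FPKM + 0.1) and with no filter, and ran from 0 to 3 with a library left out. Some keratins that had not passed changed sign. Krt10 had a log2 fold change between tissues of -0.27 with the Ahnak KO libraries alone and without the WT ureter (-0.274 and -0.275), -0.115 with library size alone, and -0.149 and -0.094 with limma on log2(FPKM + 0.1) and log2(FPKM + 1). Krt23 had 0.80 in the former 2 settings (0.804 and 0.802), with adjusted p-values of 0.0413 and 0.0334, and Krt90 had 0.25 without the WT ureter. In kidney, Krt7 had log2 fold changes between genotypes of -0.013 with limma on both FPKM scales (-0.0127 and -0.0125), -0.15 without Ahnak KO replicate 2 (-0.155) and -0.080 without WT replicate 2 (-0.0796), and Krt8 had -0.094 and Krt19 -0.014 without Ahnak KO replicate 2. With each library left out, the range between tissues was -0.275 to 0.554 for Krt10, -1.615 to 0.802 for Krt23 and -6.50 to 0.25 for Krt90, and in kidney -0.155 to 0.157 for Krt7, -0.094 to 0.263 for Krt8 and -0.014 to 0.220 for Krt19. The causes were not tested.

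In ureter, the keratins over 2-fold higher in Ahnak KO, 7, became 4 with log2(FPKM + 0.5), and the 2 over 2-fold lower became 1 there and with at least 50 counts. The number higher ran from 4 to 9 over the alternatives. In kidney, the number of keratins called was 0 with the replicate block, which moved the sign of 3 of 21 keratins, and 0 in each other alternative. With the crossed pairing it was also 0. Between kidney and ureter, a replicate block by the number in the column names, added after seeing the data, uses only the 2 same-numbered pairs and leaves 1 residual degree of freedom. With this block 13 keratins were higher and 0 lower, and Krt79, Krt39 and Krt222 did not pass. With 1 ureter per genotype, whether same-numbered columns vary together cannot be told apart from genotype. No paired analysis was possible in ureter because 1 library per genotype gives no test. With 1 ureter library per genotype, the data limit the genotype comparison to counting error, and 3 counts in the library labelled Ahnak KO ureter stand for 0.101 CPM.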
